A study of Mus musculus with 25 samples.

Results

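The comparison set 7 arrays of wild-type stage 3 (S3) invariant natural killer T cells against 6 arrays of wild-type stages 1 and 2 combined (S1_S2), which together make up 13 of the 25 arrays of the series. Members were chosen by their genotype and stage label alone. All mice were C57BL/6 and the wild-type groups carried no stated deletion, treatment or transgene. Age is not in the labels. The S1_S2 group is CD24-, NK1.1- cells of either CD44 state, and the S3 group is CD24-, CD44+, NK1.1+ cells, both TCR beta+ and positive for the CD1d tetramer. Thymocytes were first enriched with a CD8 microbead kit. The remaining arrays, 9 labelled Mst1KO and 3 labelled dKOMst, entered the fit only to estimate the spread between arrays, apart from a single comparison with Mst1KO at the end, for which the Mst1KO groups held 4 S1_S2 and 5 S3 arrays.

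Cells of the invariant natural killer T (iNKT) lineage carry a near-uniform T cell receptor that sees lipid antigens on CD1d. They arise from double-positive thymocytes and, under the transcription factor PLZF (Zbtb16), acquire effector functions inside the thymus. The classical stages are read from the surface: stage 1 cells divide, stage 2 cells gain CD44, and stage 3 cells gain NK1.1 and other receptors of natural killer (NK) cells. Another view divides the same cells into subsets by product, with NKT1 cells making interferon gamma under T-bet, NKT2 cells making interleukin 4, and NKT17 cells making interleukin 17. NKT1 cells make up most of stage 3, and NKT2 and NKT17 cells lack NK1.1 as a rule. In RNA from whole sorted populations, a change within cells and a change in the mix of cells cannot be told apart, nor can fewer cells of a type and less RNA per cell.

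Each array gave a log2 value for 22206 transcript clusters, where a difference of 1 is 2-fold. Array medians lay between 7.29 and 7.39. A cluster was taken as above background where it exceeded the median of that array's negative controls, which lay between 6.19 and 6.55 on the wild-type arrays, and 5589 clusters (25.2%) did so on none of them. The numbers in the array titles fall into 2 runs with a gap between them, which the labels do not call batches. The first run held 3 S1_S2 and 4 S3 wild-type arrays and the second held 3 of each, so the run was kept as a term in the fit. Correlations over all clusters were 0.981 to 0.992 within a stage and 0.966 to 0.978 between stages. No label ties an array to its own mouse, so each p-value rests on array-to-array spread, part or all of which may be technical.

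The genes of the sort followed the gates, which is no finding. Klrb1c, which encodes NK1.1, was 3.24 ± 0.16 higher at S3, and Cd44 was 1.003 ± 0.09 higher. Cd24a was above background on no wild-type array. The defining genes of the lineage were well above background at either stage, with the lowest values of Zbtb16 at 12.45 and 11.36 in S1_S2 and S3 and those of Cd3e at 12.20 and 12.36.

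One S3 array stands apart and bears on several results. On WT S3 replicate 4, the mean of 10 NKT17 markers was 7.25, against 8.46 to 9.28 on the other 6 S3 arrays. It had the lowest S3 value for 9 of the 10. Il23r, the receptor for the cytokine that maintains interleukin 17 producers, was at 5.80 there and between 9.57 and 10.58 on the other S3 arrays. The same array was the highest of the S3 group for Ifng, Fos, Jun and Btg2. Leaving it out changed the number of called clusters from 3760 to 3578, within the 3362 to 3759 reached by leaving out each wild-type array in turn. Among the S1_S2 arrays, replicate 3 had the lowest value for 7 of 10 NKT17 and 5 of 9 NKT2 markers.

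At an adjusted p under 0.05 (limma, Benjamini-Hochberg over all clusters, no minimum fold), 3760 of 22206 clusters (16.9%) differed between the stages. Of these, 1817 (8.18%) were higher and 1943 (8.75%) were lower at S3. The median difference over all clusters was 0.01, a value that the common distribution set by the normalization keeps near 0. With arrays centred on their median the counts were 1999 higher and 1722 lower. Among called clusters the median size of the difference was 0.47. Differences of at least 2-fold were called for 2.56% of clusters, of which 257 (1.16%) were higher and 311 (1.4%) were lower at S3, and of at least 8-fold for 27 and 12. Values did not overlap between stages for 725 clusters (3.26%) that were higher on every S3 array and for 759 (3.42%) that were lower on every S3 array. These shares are the background against which the counts in each gene list are given.

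**Figure D1:**
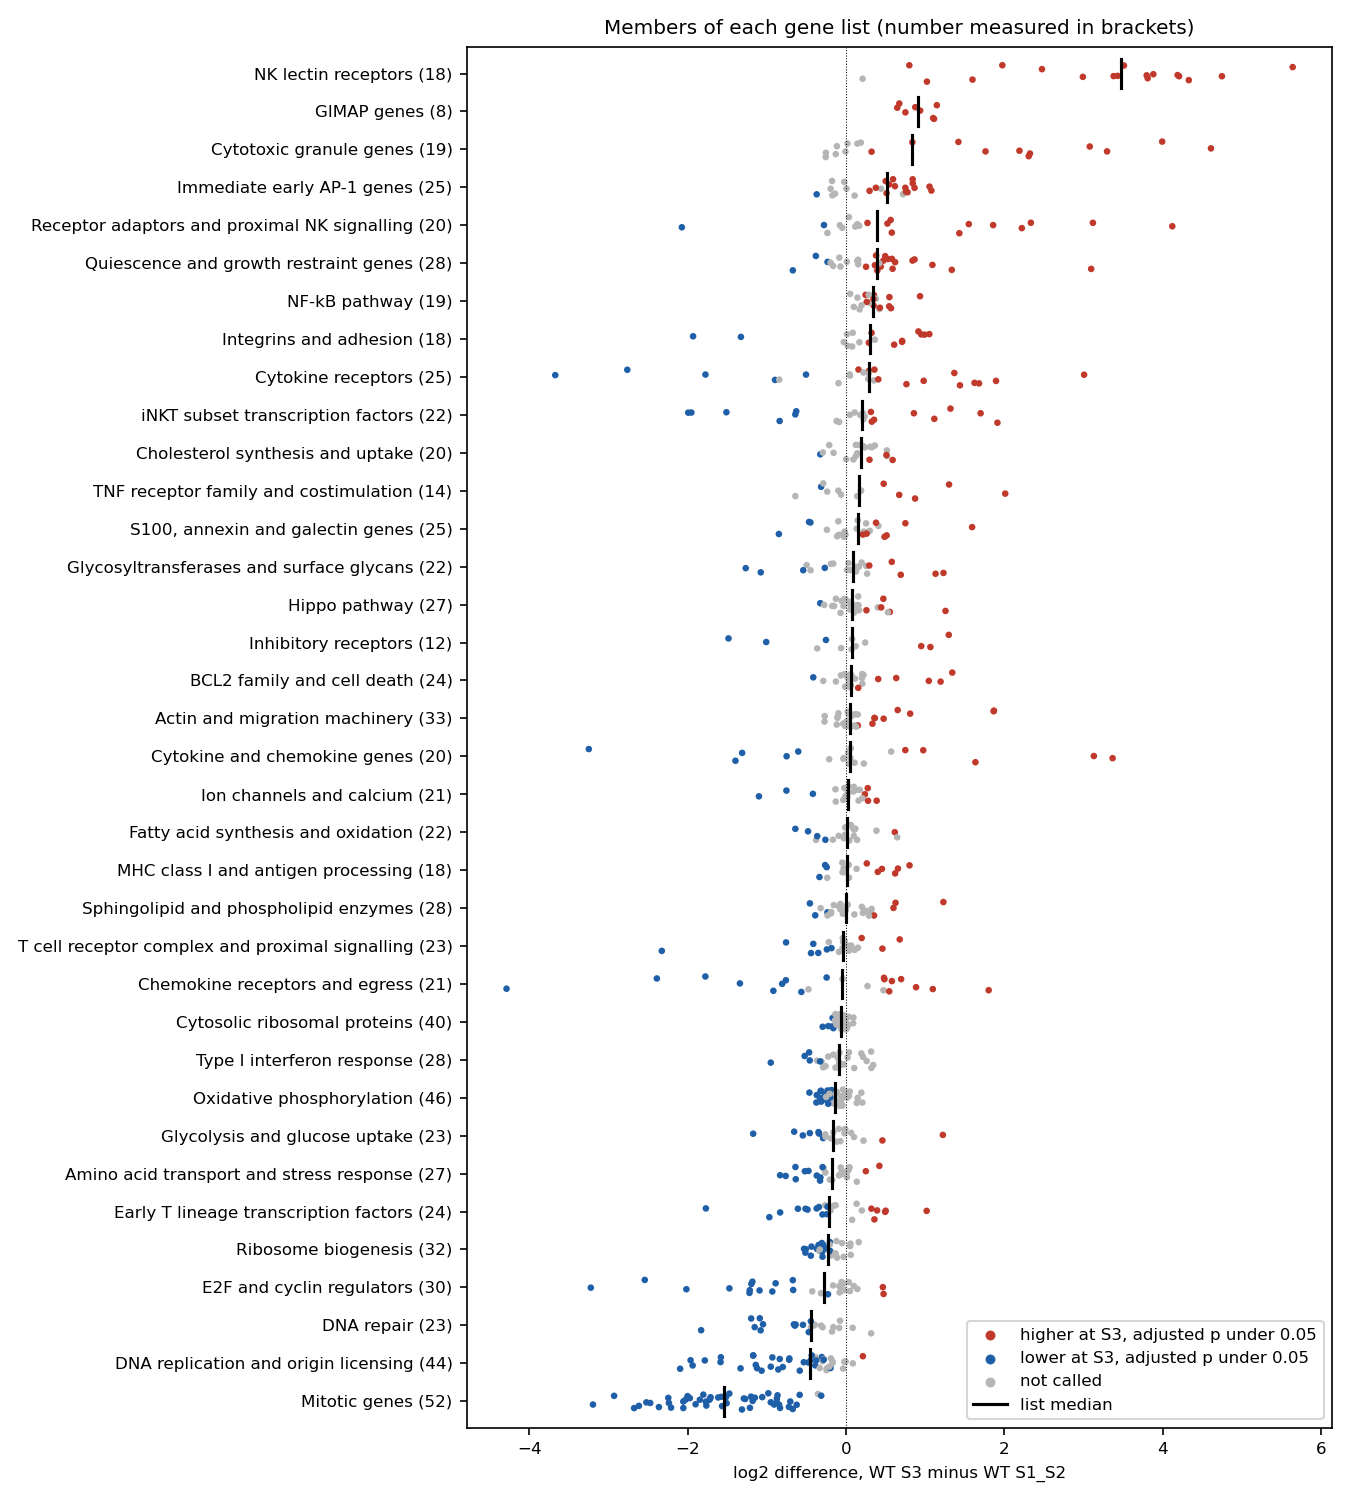
Log2 difference between wild-type S3 and S1_S2 for each measured member of 36 gene lists, ordered by the list median (black bar), with red points called higher, blue points called lower and grey points not called. The NK lectin receptors lie furthest right with a median of 3.47 and the mitotic genes furthest left with a median of -1.54, and the cytosolic ribosomal proteins cluster near 0.

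The largest rises of maturation were the receptors of natural killer cells. These C-type lectins, most of them encoded in one gene complex, include receptors for MHC class I and stress ligands that help set the threshold for killing. Of 18 measured members, 17 were higher at S3, none was lower and the median difference was 3.47 (3.34 in the first run and 3.63 in the second). Of these members 4 were above background on no S1_S2 array, and with those at their lower bound, or at 0 where there is none, the median was 3.41. Klrg1, a receptor of late effector cells, was the member not called, and it was not above background on any wild-type array.

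Klre1, a receptor that pairs with other lectins of the complex, had the largest rise of any named gene measured in both stages. Its lowest, median and highest values were 5.997, 6.37 and 7.35 in S1_S2 and 11.93, 12.14 and 12.31 in S3, a difference of 5.64 ± 0.16 (adjusted p = 8.42e-17). Every S3 array was above every S1_S2 array, and only 2 of the 6 S1_S2 arrays were above background.

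Klrd1 encodes CD94, the common partner of the NKG2 chains that bind Qa-1. Its values ran 6.68, 7.85 and 9.94 in S1_S2 and 12.20, 12.31 and 12.38 in S3, and it differed by 4.21 ± 0.34 (adjusted p = 2.21e-09). Klrc1, the inhibitory NKG2A chain, ran 4.50, 5.02 and 8.49 and 10.17, 10.26 and 10.86, a difference of 4.75 ± 0.41 (adjusted p = 6.73e-09). Both rose without overlap between the stages, although the S1_S2 array of replicate 3 held a Klrc1 value far above the other 5, which reached no more than 5.92. Klrk1, the activating receptor NKG2D, rose by 3.51 ± 0.24, Klrc3, another NKG2 chain, by 3.88 ± 0.32 and Klri2, a lectin of the same complex, by 3.80 ± 0.24.

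The Klra genes, which encode the Ly49 receptors for classical MHC class I, moved together. Klra9 ran 6.84, 7.22 and 7.85 in S1_S2 and 11.31, 11.66 and 11.81 in S3 (4.33 ± 0.15, adjusted p = 7.26e-16). Klra5 rose by 4.19 ± 0.25, Klra10 by 3.43 ± 0.18 and Klra7 by 3.38 ± 0.14. Klra6 was above background on no S1_S2 array and on all 7 S3 arrays, and was at least 9.82-fold higher at S3, where this bound sets the S3 mean against the background of the S1_S2 arrays. These genes are close sequence relatives, and how far their probes tell them apart was not tested.

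**Figure D2:**
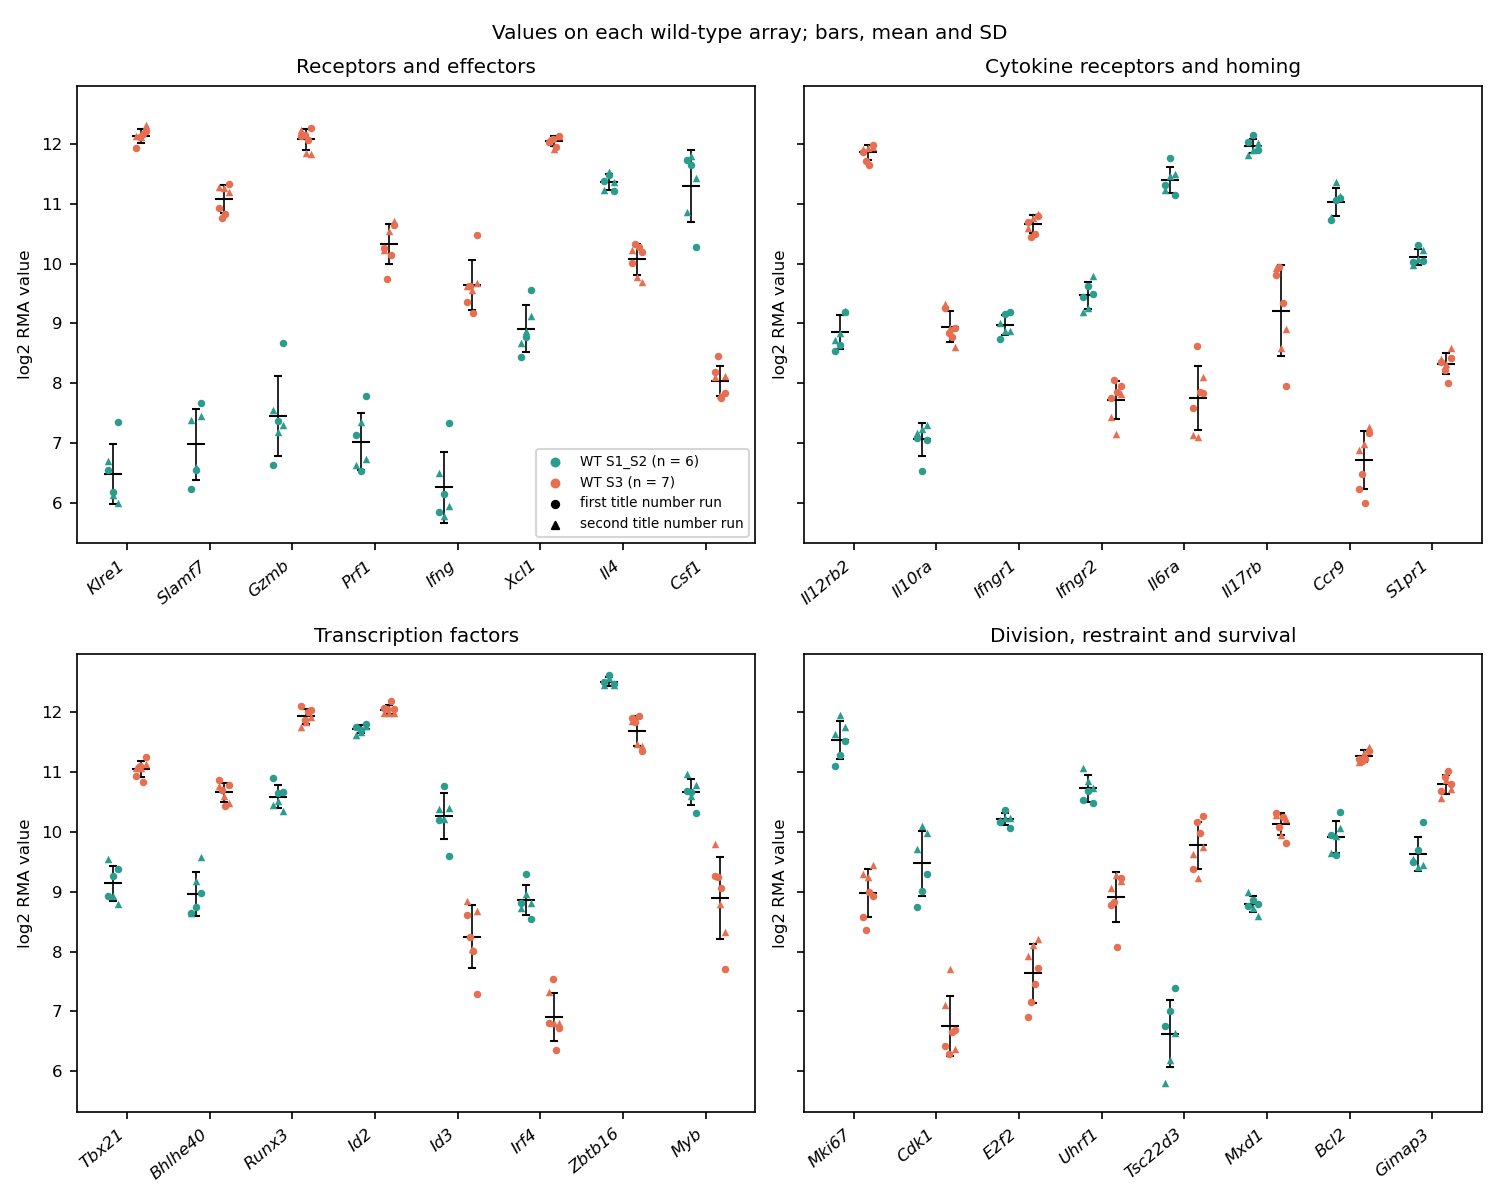
Log2 values of 32 genes on each of the 13 wild-type arrays, with S1_S2 in teal and S3 in orange, circles for the first title number run and triangles for the second, and bars for the mean and SD. The stages do not overlap for any gene shown, from Klre1, at most 7.35 in S1_S2 and at least 11.93 in S3, to Id2, at most 11.80 and at least 11.98.

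Adaptors and partner receptors through which NK receptors signal were more often higher than lower, with 11 of 20 members higher, 2 lower and a median of 0.40. For 2 members no array of the dimmer group was above background. With those at their lower bound, or at 0 where there is none, the median was 0.22. Fcer1g, the Fc receptor gamma chain, rose from 5.53, 6.51 and 6.75 to 9.09, 9.52 and 9.82 (3.12 ± 0.15, adjusted p = 5.57e-13). Tyrobp, which encodes DAP12 and serves the activating Ly49 receptors, rose by 1.86 ± 0.10, and Hcst, which encodes DAP10 and serves NKG2D, by 0.57 ± 0.07. All 3 adaptors were higher on every S3 array than on any S1_S2 array.

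Within the SLAM family of homotypic receptors the members moved in opposite directions. Slamf7 ran 6.23, 6.99 and 7.68 in S1_S2 and 10.77, 11.20 and 11.32 in S3 (4.12 ± 0.21, adjusted p = 7.09e-13), and Cd244a, the 2B4 receptor, rose by 2.34 ± 0.18. Slamf6, which takes part in the selection of iNKT cells by double-positive thymocytes, went the other way, from 11.83, 11.99 and 12.09 to 8.55, 10.02 and 10.92 (-2.07 ± 0.25, adjusted p = 1.35e-06). Sh2d1a, the adaptor SAP needed for that selection, fell by 0.28 ± 0.06 with overlapping values. Cd160 and the Fc receptor gene Fcgr3 were 1.43 ± 0.10 and 2.22 ± 0.22 higher.

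Markers listed for NK cells as another cell type moved with these receptors. Of 7 measured, 4 were higher and none was lower, and their mean was 6.60 to 7.27 across S1_S2 arrays and 7.92 to 8.45 across S3 arrays. The list shares Klra9 and Klrb1b with the receptors above. Eomes, the T-box factor that NK cells depend on, was above background on no S1_S2 array and on 1 of 7 S3 arrays. It was not called (adjusted p = 0.406), and the size of its difference was not measured at that level. Ncr1, the NKp46 receptor, was above background on no S1_S2 array and on 4 of 7 S3 arrays. The sort took cells with TCR beta and CD1d tetramer, and Cd3e was 0.20 ± 0.05 higher at S3. The part of NK cells in the rise was not tested.

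Most genes of the cytotoxic machinery rose. Of 19 granule and death ligand genes, 11 were higher, none was lower and the median was 0.84 in each run. Gzmb, the protease that starts apoptosis in target cells, ran 6.64, 7.34 and 8.67 in S1_S2 and 11.82, 12.14 and 12.27 in S3 (4.61 ± 0.24, adjusted p = 1.47e-12). Prf1, the pore former perforin, ran 6.53, 6.93 and 7.78 and 9.74, 10.26 and 10.72 (3.30 ± 0.19, adjusted p = 9.84e-12). Neither gene overlapped between the stages.

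The granzymes were not equal in their change. Gzma ran 6.28, 6.43 and 7.25 in S1_S2 and 9.84, 10.74 and 11.17 in S3, a rise of 3.995 ± 0.20 (adjusted p = 7.09e-13). Gzmc was above background on no S1_S2 array and was at least 2.85-fold higher at S3. Gzmm rose only by 0.32 ± 0.09 with overlapping values, and Gzmk was not called (0.19 ± 0.12, adjusted p = 0.344) and above background on 1 wild-type array. The death ligands Fasl and Tnfsf10 (TRAIL) rose by 3.08 ± 0.14 and 1.42 ± 0.13, the granule membrane protein Nkg7 by 2.32 ± 0.11 and the granzyme B inhibitor Serpinb9 by 2.19 ± 0.12. Lamp1, a general lysosome membrane protein, was not called (-0.25 ± 0.09, adjusted p = 0.0526), and was called lower when S1_S2 replicate 3 or 4 or S3 replicate 1 was left out.

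Cytokine genes went both ways, with 5 of 20 higher, 5 lower, 10 not called and a median of 0.05. Ifng, the signature cytokine of NKT1 cells, ran 5.78, 6.05 and 7.33 in S1_S2 and 9.18, 9.62 and 10.48 in S3 (3.37 ± 0.23, adjusted p = 8.59e-11). Xcl1, the chemokine that draws cross-presenting dendritic cells, ran 8.44, 8.83 and 9.56 and 11.92, 12.06 and 12.14 (3.13 ± 0.12, adjusted p = 7.85e-15). Both rose on every S3 array, and the Ifng rise was 3.22 in the first run and 3.54 in the second. Ccl5, Ccl4 and Ltb (lymphotoxin beta) completed the 5 that rose, by 1.64 ± 0.21, 0.98 ± 0.16 and 0.75 ± 0.06.

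Il4 fell but remained far above background. It ran 11.22, 11.37 and 11.53 in S1_S2 and 9.69, 10.20 and 10.32 in S3, a difference of -1.31 ± 0.10 (adjusted p = 6.92e-10), with no overlap. Il13, its type 2 companion, fell by 0.60 ± 0.09 with overlapping values. Csf1, the macrophage growth factor M-CSF, had the largest fall of the list, from 10.28, 11.53 and 11.79 to 7.76, 8.11 and 8.45 (-3.25 ± 0.22, adjusted p = 7.60e-11). Il21, the helper cytokine for B cells, was above background on 4 of 6 S1_S2 arrays and on no S3 array, and was at least 1.68-fold lower. Tnfsf11, which encodes RANKL and acts on thymic epithelium, fell by 0.75 ± 0.11.

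Cytokine receptors changed in both directions, with 12 of 25 higher, 5 lower and a median of 0.29. Il12rb2, the inducible chain of the interleukin 12 receptor, ran 8.53, 8.78 and 9.22 in S1_S2 and 11.64, 11.92 and 11.98 in S3 (3.01 ± 0.12, adjusted p = 2.20e-14). Its partner Il12rb1 fell by 0.50 ± 0.10. For interleukin 18, the accessory chain Il18rap rose by 1.44 ± 0.18, whereas the ligand-binding chain Il18r1 was not called (0.05 ± 0.08, adjusted p = 0.746).

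The 2 chains of the interferon gamma receptor went in opposite directions. Ifngr1, the ligand-binding chain, ran 8.74, 8.94 and 9.18 in S1_S2 and 10.44, 10.69 and 10.83 in S3 (1.68 ± 0.09, adjusted p = 1.50e-12). Ifngr2, the signalling chain, ran 9.20, 9.47 and 9.79 and 7.15, 7.82 and 8.05 (-1.77 ± 0.14, adjusted p = 1.14e-09). Neither overlapped between stages, and each kept its sign within both title number runs. Among other receptors, Il10ra rose by 1.90 ± 0.16, Il4ra by 1.63 ± 0.11, Il21r by 1.37 ± 0.16 and Il2rb, the shared chain for interleukins 2 and 15, by 0.98 ± 0.08.

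Receptors for interleukins 6 and 25 fell most. Il6ra ran 11.15, 11.38 and 11.76 in S1_S2 and 7.11, 7.83 and 8.62 in S3 (-3.67 ± 0.19, adjusted p = 7.09e-13). Il17rb, the interleukin 25 receptor that marks NKT2 cells, ran 11.81, 11.95 and 12.14 and 7.96, 9.35 and 9.93 (-2.76 ± 0.24, adjusted p = 4.77e-09). The S3 arrays spread far more widely for Il17rb than the S1_S2 arrays did, and the stages did not overlap for either gene. The cytokine receptor list mean was lowest in the S3 group on replicate 4, at 9.44 against 9.62 to 9.74 on the others.

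Homing and retention genes changed in both directions: 8 of 21 were higher and 9 were lower. The median was -0.04, and lay between -0.18 without S3 replicate 4 and 0.06 without S3 replicate 3. Ccr9, the receptor for the thymic and gut chemokine CCL25, had the largest fall of any named gene measured in both stages. It ran 10.74, 11.08 and 11.36 in S1_S2 and 5.99, 6.89 and 7.26 in S3 (-4.29 ± 0.16, adjusted p = 7.85e-15), and 5 of the 7 S3 arrays were above background. Ccr4 fell by 2.39 ± 0.20. Ccr8, which shares the type 2 and skin association of Ccr4, rose instead (1.80 ± 0.20).

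Genes of thymic exit changed as well. S1pr1, the receptor that follows sphingosine 1-phosphate out of the thymus, ran 9.97, 10.06 and 10.31 in S1_S2 and 8.01, 8.35 and 8.58 in S3 (-1.77 ± 0.11, adjusted p = 1.56e-11). Cd69, whose protein removes that receptor from the surface, ran 9.41, 10.04 and 10.36 and 10.68, 11.02 and 11.75 (1.10 ± 0.13, adjusted p = 9.13e-07). Klf2, which activates S1pr1 in other T cells, was 0.58 ± 0.16 higher, with a narrow gap of 8.34 to 8.40 between the stages. Cxcr3, a receptor of type 1 effector cells, rose by 0.89 ± 0.10, and Cxcr6, which retains iNKT cells in the liver, was not called (-0.04 ± 0.17, adjusted p = 0.92). P2rx7, a sensor of extracellular ATP and NAD, was above background on 5 of 6 S1_S2 arrays and no S3 array, and was at least 1.29-fold lower.

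Adhesion genes were more often higher than lower, with 9 of 18 up, 2 down and a median of 0.31. The 2 that fell were Itgb3, the beta chain of the vitronectin receptor (-1.93 ± 0.16), and Pecam1 (-1.33 ± 0.11). Icam1 (1.05 ± 0.09), Itgb1 (0.99 ± 0.10) and Itgae, the epithelial-retention integrin CD103 (0.71 ± 0.12), were higher with no overlap between stages. Itga2, which encodes the NK marker CD49b, rose by 0.71 ± 0.15 with overlapping values.

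Transcription factors that define iNKT subsets were divided, with 8 of 22 higher, 6 lower and a median of 0.20 (0.13 without S1_S2 replicate 3). For 2 members no array of the dimmer group was above background. With those at their lower bound, or at 0 where there is none, the median was 0.08. Tbx21, which encodes T-bet, ran 8.80, 9.09 and 9.54 in S1_S2 and 10.84, 11.07 and 11.24 in S3 (1.91 ± 0.14, adjusted p = 2.70e-10). Bhlhe40, a cofactor of T-bet in iNKT cells, rose by 1.70 ± 0.13. Runx3, which represses Cd4 and promotes cytotoxic genes, rose by 1.32 ± 0.07, and its relative Runx1 fell by 0.64 ± 0.08. All 4 changed without overlap between the stages.

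The E protein inhibitors Id2 and Id3 went in opposite directions. Id3 ran 9.60, 10.30 and 10.77 in S1_S2 and 7.30, 8.24 and 8.85 in S3 (-1.99 ± 0.18, adjusted p = 1.17e-08). Id2 was 0.32 ± 0.05 higher from an already high level, with its S1_S2 values at 11.63, 11.73 and 11.80. Irf4, induced by receptor signals, fell from 8.55, 8.81 and 9.30 to 6.35, 6.80 and 7.53 (-1.95 ± 0.17, adjusted p = 5.27e-09). Zbtb16 itself was lower at S3 (-0.84 ± 0.08, adjusted p = 7.51e-08), and Rora, which cooperates in the interleukin 17 program, fell by 1.51 ± 0.12. Nfil3, required for NK cell development, rose by 1.12 ± 0.14.

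Factors of early T cell development were more often lower than higher (11 against 6 of 24, median -0.21). Myb, which keeps double-positive thymocytes alive long enough to rearrange the iNKT receptor, ran 10.31, 10.68 and 10.97 in S1_S2 and 7.72, 9.06 and 9.80 in S3 (-1.77 ± 0.21, adjusted p = 1.24e-06). Lef1 fell by 0.97 ± 0.08, Sox4 by 0.83 ± 0.12 and Tox by 0.61 ± 0.09. Among those that rose, Dtx1, a Notch target linked to T cell unresponsiveness, gained 1.02 ± 0.18 and Foxp1, a guardian of quiescence, 0.50 ± 0.07. The orphan receptors differed in sign, with Nr4a1 at -0.37 ± 0.10 and Nr4a2 at 0.50 ± 0.14. Bach2 was not called (0.08 ± 0.21, adjusted p = 0.875).

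Stat4, the factor that carries interleukin 12 signals to Ifng, belonged to none of the lists and is named after its values were seen. It ran 5.21, 5.86 and 6.86 in S1_S2 and 8.84, 9.09 and 9.52 in S3, a rise of 3.33 ± 0.20 (adjusted p = 1.34e-11). Only 1 of the 6 S1_S2 arrays was above background.

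In the T cell receptor complex and its proximal signalling, 3 of 23 members were higher and 7 were lower, with a median of -0.03. The share called was 43.5%, beside 16.9% of all clusters. The largest difference was that of Themis, a regulator of receptor signal strength during selection, which ran 9.93, 10.01 and 10.14 in S1_S2 and 7.21, 7.87 and 8.23 in S3 (-2.32 ± 0.15, adjusted p = 6.15e-11). Icos fell by 0.76 ± 0.09, Cd5 by 0.41 ± 0.05, Cd4 by 0.44 ± 0.09 and the zeta chain gene Cd247 by 0.35 ± 0.09. Ubash3a, a brake on receptor signalling, rose by 0.68 ± 0.10. Zap70, the kinase recruited by the receptor, was not called (0.11 ± 0.06, adjusted p = 0.205).

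Inhibitory receptors changed both ways, with 3 of 12 higher and 3 lower. For 6 of the 12, no array of the dimmer group was above background. Pdcd1, which encodes PD-1, ran 10.07, 10.64 and 10.84 in S1_S2 and 7.92, 9.35 and 9.89 in S3 (-1.48 ± 0.25, adjusted p = 0.000115), and Btla fell by 1.01 ± 0.10. Tigit was above background on no S1_S2 array and all 7 S3 arrays, and was at least 1.72-fold higher. Lag3 was not called (-0.36 ± 0.13, adjusted p = 0.0675), but was called lower without S3 replicate 1. In the TNF receptor and costimulatory list, 5 of 14 were higher and 1 was lower (2 without S3 replicate 1 or 7). Icosl, the ligand of ICOS, rose by 2.01 ± 0.27, Tnfrsf18, which encodes GITR, by 1.30 ± 0.08 and Tnfrsf1a, the first TNF receptor, by 0.87 ± 0.09.

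Genes induced early by activation were higher at S3 (15 of 25, 1 lower, median 0.51). Fosl2 rose by 1.06 ± 0.08, Jund by 0.84 ± 0.09, Junb by 0.55 ± 0.06 and Zfp36l2, which destabilizes messages with AU-rich ends, by 1.08 ± 0.16. Fos ran 8.999, 9.56 and 9.98 in S1_S2 and 10.08, 10.37 and 11.07 in S3 (0.84 ± 0.16, adjusted p = 0.00041). Its highest value lay on S3 replicate 4, and the S3 values did not reach down to those of S1_S2. Of 19 NF-kB pathway genes, 10 were higher, none was lower and the median was 0.35. They included the NF-kB inhibitors and feedback genes Tnfaip3 (0.94 ± 0.10) and Nfkbiz (0.55 ± 0.09), the subunit gene Nfkb2 (0.57 ± 0.08) and the signalling protease Malt1 (0.55 ± 0.07).

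Genes of cell division fell. Of 52 measured mitotic genes, 51 were lower at S3 and none was higher, with a median of -1.54 (-1.35 in the first run and -1.68 in the second). The S3 arrays had list means of 6.90 to 7.48 and the S1_S2 arrays 8.20 to 9.12, so the stages did not overlap. With 8 members that were above background on no S3 array set at their lower bound, or at 0 where there is none, the median was -1.51. Kif20b, a kinesin of the midbody, was the member not called (-0.35 ± 0.20, adjusted p = 0.273).

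Promoters of 3 mitotic genes are shown because their genes fell together. They were chosen as the largest falls among those with a single promoter in the table that holds a pair of short motifs known from cell cycle genes: the cell cycle homology region (CHR, TTTGAA), which recruits the DREAM complex in quiet cells and B-MYB with FOXM1 in dividing cells, and the CCAAT box bound by NF-Y. The promoter of Cdc6, a replication licensing factor, is shown for the E2F site of S phase genes (TTTCCCGC or TTTGGCGC), and that of Nkg7, a gene that rose, for a T-box site (TCACACCT). Each run is the 250 bases before the start of the gene, read 5′ to 3′ on the gene's strand, from RefSeq on GRCm38.p6, with matches on either strand in capitals: CHR and CCAAT in the first 3 runs, the E2F site in that of Cdc6 and the T-box site in that of Nkg7. The other motifs are not marked in a run. They lie at chr10:69352913-69353162 (Cdk1, minus strand), chr7:135716380-135716629 (Mki67, minus), chr5:45669675-45669924 (Ncapg, plus), chr11:98907901-98908150 (Cdc6, plus) and chr7:43436888-43437137 (Nkg7, plus).
Cdk1: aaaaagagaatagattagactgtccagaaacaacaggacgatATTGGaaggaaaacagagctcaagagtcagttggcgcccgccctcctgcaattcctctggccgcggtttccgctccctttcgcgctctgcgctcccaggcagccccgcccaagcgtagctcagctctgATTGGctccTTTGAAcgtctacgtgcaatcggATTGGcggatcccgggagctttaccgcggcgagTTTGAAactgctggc
Mki67: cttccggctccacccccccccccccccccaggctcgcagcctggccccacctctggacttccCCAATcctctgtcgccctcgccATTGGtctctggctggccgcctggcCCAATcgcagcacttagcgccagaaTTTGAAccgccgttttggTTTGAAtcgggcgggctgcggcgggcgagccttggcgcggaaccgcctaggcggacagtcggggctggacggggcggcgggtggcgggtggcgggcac
Ncapg: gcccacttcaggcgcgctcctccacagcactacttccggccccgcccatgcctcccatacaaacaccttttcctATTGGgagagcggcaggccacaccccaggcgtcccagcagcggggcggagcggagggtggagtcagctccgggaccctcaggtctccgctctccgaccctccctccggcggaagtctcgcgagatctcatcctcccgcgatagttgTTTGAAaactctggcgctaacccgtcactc
Cdc6: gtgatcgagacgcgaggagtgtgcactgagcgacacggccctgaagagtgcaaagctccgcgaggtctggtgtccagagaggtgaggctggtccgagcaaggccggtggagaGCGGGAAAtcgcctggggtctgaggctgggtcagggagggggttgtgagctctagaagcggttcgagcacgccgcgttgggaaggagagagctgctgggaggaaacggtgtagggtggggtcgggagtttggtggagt
Nkg7: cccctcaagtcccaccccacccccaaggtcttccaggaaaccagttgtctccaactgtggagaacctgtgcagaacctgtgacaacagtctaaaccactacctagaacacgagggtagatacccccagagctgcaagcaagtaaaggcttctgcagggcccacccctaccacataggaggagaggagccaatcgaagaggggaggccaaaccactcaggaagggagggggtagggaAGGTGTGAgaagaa

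The Cdk1 and Mki67 runs each hold 2 CHR and 3 CCAAT matches, and that of Ncapg, a condensin subunit, holds 1 of each. No marked matches overlap one another in the printed runs. The promoter table matched 15691 of the 19505 named genes, among them 43 of the 52 mitotic genes, some with more than 1 promoter. Over the 250 bases before the start, the CHR was in 16 of 45 promoters of the mitotic list (35.6%), against 5252 of all 32851 promoters (15.99%), and CCAAT was in 33 of 45 (73.3%), against 33.8%. The CHR was also in 6 of 19 promoters of the NK lectin receptors (31.6%), which rose, and CCAAT in 15 of 20 of the cholesterol list (75%). When 50 bases after the start were added, the CHR share of the mitotic promoters rose to 77.8% and that of all promoters to 17.9%. The E2F site was in 6 of 46 DNA replication promoters (13.04%), against 1.30% of all, and with the added 50 bases in 26.1% against 1.56%. Before the start, the site was also in 3 of 24 promoters of the DNA repair list (12.5%). It was likewise in 4 of 32 promoters of the E2F and cyclin list (12.5%). The T-box site was in 1 of 8 promoters of NKT1 markers, against 1.12% of all promoters, and in none of 19 NK lectin receptor promoters. The Runx site TGTGGTT was in 9.09% of promoters of clusters called at least 2-fold higher, against 4.40% of all. A match describes the letters of the window and not a bound site.

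**Figure D3:**
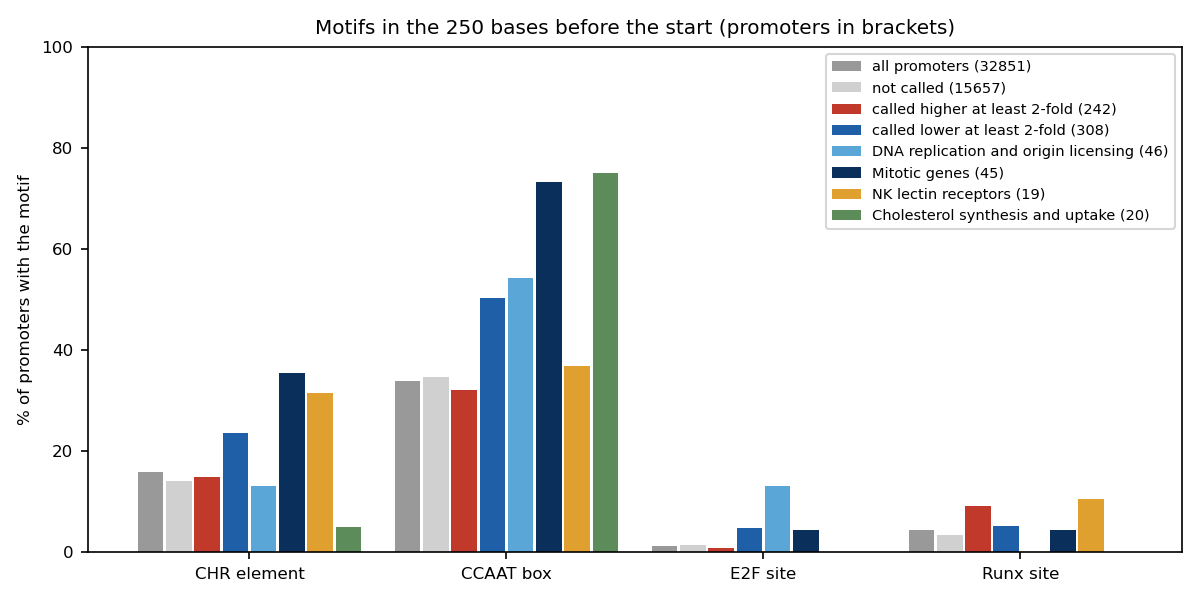
Share of promoters that hold a motif on either strand in the 250 bases before the start, for all promoters, for genes grouped by their call and for 4 gene lists. Among the sets drawn, the mitotic list has the highest bar for the CHR (35.6%), followed by the NK lectin receptors (31.6%), the cholesterol list the highest for CCAAT (75%, beside 73.3% for the mitotic list) and the DNA replication list the highest for the E2F site (13.04%).

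Cdk1, the kinase that drives entry into mitosis, ran 8.74, 9.51 and 10.11 in S1_S2 and 6.29, 6.66 and 7.71 in S3 (-2.67 ± 0.19, adjusted p = 1.95e-10). Mki67, the Ki-67 proliferation antigen, ran 11.10, 11.58 and 11.96 and 8.36, 8.996 and 9.45 (-2.52 ± 0.12, adjusted p = 2.54e-13). Both were lower on every S3 array than on any S1_S2 array, and Mki67 remained above background on all 7 S3 arrays. Pbk, a mitotic kinase, fell by 2.93 ± 0.40, Plk1, the polo kinase, by 2.05 ± 0.20, Top2a, topoisomerase II, by 2.03 ± 0.17 and Ccnb2, a B-type cyclin, by 1.76 ± 0.10. Kif15, a spindle kinesin, and Bub1b, of the spindle checkpoint, were above background on no S3 array, and were at least 4.25-fold and at least 1.98-fold lower.

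Genes of S phase fell too. Of 44 replication and licensing genes, 29 were lower, 1 was higher and the median was -0.46. Rrm2, the ribonucleotide reductase subunit made in S phase, ran 8.27, 8.93 and 9.30 in S1_S2 and 6.56, 6.77 and 7.26 in S3 (-1.96 ± 0.14, adjusted p = 2.11e-10). Uhrf1, which copies DNA methylation behind the fork, fell by 1.78 ± 0.12, Tyms, the thymidylate synthase, by 1.93 ± 0.21 and Cdc6 by 1.58 ± 0.14. The helicase subunits Mcm3, Mcm5 and Mcm2 fell by 0.95 ± 0.10, 0.80 ± 0.10 and 0.44 ± 0.08, and the clamp Pcna by 0.43 ± 0.07. Cdt1, another licensing factor, was the single member that rose (0.22 ± 0.07, adjusted p = 0.0402), a call that was lost when any 1 of 7 arrays was left out (S1_S2 replicates 1, 5 and 6 and S3 replicates 1, 3, 5 and 7), with differences of 0.17 to 0.22.

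Among the regulators above them, 14 of 30 E2F and cyclin genes were lower and 2 were higher (median -0.27), the latter count being 1 in 9 of the 13 fits that left out a single array. For 1 member no array of the dimmer group was above background. With that member at its lower bound, or at 0 if there is none, the median was -0.20. E2f8, an atypical E2F, ran 9.49, 10.15 and 10.39 in S1_S2 and 5.60, 6.27 and 8.15 in S3 (-3.22 ± 0.21, adjusted p = 7.63e-11). E2f2, an activator, ran 10.07, 10.21 and 10.37 and 6.90, 7.72 and 8.21 (-2.54 ± 0.15, adjusted p = 7.96e-12). The fall of E2f8 was 3.89 in size in the first run and 2.46 in the second, and neither gene overlapped between stages. E2f3, E2f7 and E2f1 were lower by smaller amounts (-1.18 ± 0.13, -0.93 ± 0.11 and -0.89 ± 0.12). Ccne2 and Ccne1, the E cyclins of S phase entry, fell by 2.01 ± 0.14 and 1.47 ± 0.15, and Cdk6, a kinase of G1, by 1.22 ± 0.18. The D cyclin gene Ccnd3 rose (0.48 ± 0.07, adjusted p = 1.29e-05). Cdkn1b, which encodes the inhibitor p27, was not called (0.14 ± 0.10, adjusted p = 0.418).

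DNA repair genes followed, with 12 of 23 lower, none higher and a median of -0.44. Chek1, the checkpoint kinase, fell by 1.15 ± 0.19 with overlapping values, and Brca1 by 0.66 ± 0.18. Exo1 and Clspn, a nuclease and a replication checkpoint mediator, were above background on no S3 array and were at least 1.46-fold and at least 1.71-fold lower.

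Genes that hold T cells in quiescence were more often higher, with 16 of 28 up, 3 down and a median of 0.39, which was 0.33 without S1_S2 replicate 3. Tsc22d3, the glucocorticoid-induced leucine zipper GILZ, ran 5.81, 6.70 and 7.39 in S1_S2 and 9.23, 9.75 and 10.26 in S3 (3.10 ± 0.21, adjusted p = 9.05e-11). Mxd1, an antagonist of MYC at its sites, rose by 1.34 ± 0.09, Klf6 by 1.09 ± 0.11 and Txnip, a brake on glucose uptake, by 0.84 ± 0.08. Btg2, an antiproliferative deadenylation factor, rose by 0.87 ± 0.08. Cdkn2c, which encodes the inhibitor p18, and Sesn3, a sestrin, were 2 of the 3 that fell (-0.67 ± 0.13 and -0.38 ± 0.07).

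Many biosynthetic genes were lower by small amounts. Ribosome biogenesis had 16 of 32 members lower and none higher (median -0.22), and oxidative phosphorylation 16 of 46 lower and none higher (median -0.13). No called member of either list reached 2-fold. The cytosolic ribosomal proteins themselves had 5 of 40 lower, a share of 12.5% called in either direction beside the 16.9% over all clusters, with a median of -0.06. Among them Rps26 fell by 0.29 ± 0.05.

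Glycolysis genes were lower for 8 of 23 members and higher for 2 (median -0.16). Ldha fell by 0.46 ± 0.06, Pgk1 by 0.65 ± 0.13 and Hk2, the inducible hexokinase, by 1.17 ± 0.33 with overlapping values. The 2 that rose were the glucose transporters Slc2a1 (0.46 ± 0.07) and Slc2a3 (1.23 ± 0.26). In the amino acid and stress list, 10 of 27 were lower and 2 were higher (median -0.17, between -0.08 and -0.23 when single arrays were left out). Phgdh, the entry to serine synthesis, fell by 0.83 ± 0.10, and the mitochondrial folate enzymes Mthfd2 and Shmt2 by 0.63 ± 0.13 and 0.47 ± 0.08. Atf4, which drives these genes in stress, was 0.42 ± 0.12 higher (adjusted p = 0.0177), and its call was lost without S1_S2 replicate 2.

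The share of lipid genes called, 20% of the cholesterol list and 22.7% of the fatty acid list, was near the 16.9% over all clusters. In the cholesterol list 3 of 20 were higher and 1 was lower, a number that reached 6 higher without S3 replicate 1 and 3 lower without S1_S2 replicate 3. Insig1 and Srebf2, the retention factor and master regulator of the pathway, rose by 0.59 ± 0.10 and 0.51 ± 0.09, and the synthase Fdps fell by 0.32 ± 0.07. In the fatty acid list 1 of 22 was higher, Elovl5 (0.62 ± 0.15), and 4 were lower, among them Fabp5 (-0.64 ± 0.10). The count of higher members reached 3 without S3 replicate 3.

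Several survival genes rose. In the BCL2 family and cell death list, 6 of 24 were higher and 1, Cflar, was lower (-0.41 ± 0.08). Bcl2 ran 9.61, 9.94 and 10.33 in S1_S2 and 11.17, 11.22 and 11.42 in S3 (1.34 ± 0.12, adjusted p = 9.28e-09). Its antagonist Bcl2l11, which encodes BIM, also rose, from 7.50, 7.95 and 8.46 to 8.84, 9.27 and 9.46 (1.20 ± 0.11, adjusted p = 1.15e-08). Neither overlapped between stages. Bcl2l1, which encodes BCL-XL, and Mcl1 rose by 1.05 ± 0.17 and 0.41 ± 0.08 with overlapping values.

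All 8 GIMAP genes, GTPases that support the survival of peripheral lymphocytes, were higher, with a median of 0.91 (0.80 in the first run and 0.99 in the second). Their mean was 9.04 to 9.49 on S1_S2 arrays and 10.07 to 10.31 on S3 arrays. Gimap3 ran 9.41, 9.52 and 10.17 in S1_S2 and 10.57, 10.80 and 11.01 in S3 (1.15 ± 0.10, adjusted p = 4.49e-09). Gimap9 and Gimap4 rose by 1.11 ± 0.14 and 0.65 ± 0.09.

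Several of the largest falls belonged to no list and came from the rule that named the 15 largest changes each way. Akr1c18, an aldo-keto reductase that inactivates progesterone, ran 8.70, 10.13 and 11.30 in S1_S2 and 5.34, 5.78 and 6.04 in S3, above background on all 6 S1_S2 arrays and on no S3 array, and was at least 12.9-fold lower. Hc, which encodes complement component C5, and Kcnn2, a calcium-activated potassium channel, were also above background on no S3 array, and were at least 3.53-fold and at least 4.31-fold lower. Mastl, the Greatwall kinase of mitosis, was at least 3.19-fold lower by the same measure.

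Other genes named by the same rule included Irak3 and Plac8, of which Plac8 is also an NKT2 marker. Irak3, an inhibitor of Toll-like receptor signals, ran 9.09, 9.91 and 10.49 in S1_S2 and 5.19, 5.48 and 8.22 in S3 (-3.73 ± 0.40, adjusted p = 1.85e-07), with 3 of 7 S3 arrays above background. Tlr1 fell by 2.76 ± 0.30. Plac8 ran 11.79, 12.03 and 12.23 and 7.59, 9.32 and 10.18 (-2.86 ± 0.27, adjusted p = 3.08e-08), and Cdh3, P-cadherin, fell by 3.21 ± 0.25 with 2 of 7 S3 arrays above background. The S3 arrays of Irak3 and Plac8 spread widely, yet none reached the S1_S2 values.

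Further lists were described by the same counts. Among actin and migration genes 9 of 33 were higher and none was lower (27.3%, beside 16.9% of all clusters), with a median of 0.05. The largest rises were those of Myo1f, a leukocyte myosin (1.87 ± 0.10), and Rhob, a small GTPase (1.87 ± 0.21). Among S100, annexin and galectin genes 7 of 25 were higher and 3 were lower, with Anxa1, a target of glucocorticoids, at 1.59 ± 0.22 and the galectins Lgals3 and Lgals1 at -0.85 ± 0.16 and -0.46 ± 0.06. Glycan enzymes were 5 of 22 higher and 4 lower, and the sialyltransferases St3gal6 and St8sia6 went in opposite directions (1.23 ± 0.25 and -1.26 ± 0.17). Type I interferon response genes were 5 of 28 lower and none higher (2 higher without S1_S2 replicate 3), with Oas2 the largest (-0.95 ± 0.20). The interferon share called, 17.9%, was near the 16.9% over all clusters. The means of that list overlapped, at 8.78 to 9.09 in S1_S2 and 8.65 to 8.99 in S3. MHC class I and antigen processing genes were 6 of 18 higher and 3 lower, among them H2-Q4 (0.66 ± 0.10) and the class II gene H2-Ab1 (0.80 ± 0.12).

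Ion channel and calcium genes were 4 of 21 higher and 3 lower, and Kcnn4, the potassium channel that sustains calcium entry, fell by 1.10 ± 0.11. Sphingolipid and phospholipid enzymes were 4 of 28 higher and 3 lower (1 lower in 5 of the 13 fits that left out an array), with the flippase Atp8a2 the largest (1.23 ± 0.13). The Hippo pathway, to which the kinases Mst1 and Mst2 deleted elsewhere in the series belong, had 5 of 27 members higher and 1 lower (median 0.08). Wwc2, an upstream scaffold, rose by 1.26 ± 0.19 and Sav1, the partner of the Mst kinases, by 0.56 ± 0.08. Stk38, an NDR kinase, was the member that fell (-0.32 ± 0.09). The share called was 33.3% of the ion channel, 25% of the sphingolipid and 22.2% of the Hippo list, beside 16.9% of all clusters.

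Read by subset markers, all 10 NKT1 markers were higher at S3 (median 2.67, array means 8.21 to 9.01 in S1_S2 and 10.74 to 11.02 in S3). All 9 measured NKT2 markers were lower (median -0.84, array means 11.25 to 11.53 and 9.72 to 10.43), and 8 were lower without S3 replicate 4. Many of these genes are described above, so the lists are not independent of those results.

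NKT17 markers behaved otherwise. Of 10 measured, 2 were called lower and none higher, a share of 20%, near the 16.9% over all clusters. Every difference was negative, the highest being -0.21, and 7 were negative within both title number runs. The median was -0.55, with -0.24 in the first run, which holds S3 replicate 4, and -0.82 in the second. Without S3 replicate 4 the median was -0.25, with 1 member lower. That count was also 1 without S1_S2 replicate 2, 4 or 6 or S3 replicate 5, 6 or 7, and was at most 3. Within the S1_S2 group, replicate 3 had the lowest value for 7 of the 10. Il23r ran 9.93, 10.30 and 10.996 in S1_S2 and 5.80, 9.99 and 10.58 in S3 (-0.84 ± 0.49, adjusted p = 0.3), and the stages overlapped. Ccr6, the chemokine receptor of interleukin 17 producers, was not called (-0.47 ± 0.34, adjusted p = 0.423). Array means of the list overlapped, at 8.75 to 9.72 in S1_S2 and 7.25 to 9.28 in S3. On the 6 S3 arrays other than replicate 4, Il23r was at 9.57 or more, against negative control medians of at most 6.55.

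**Figure D4:**
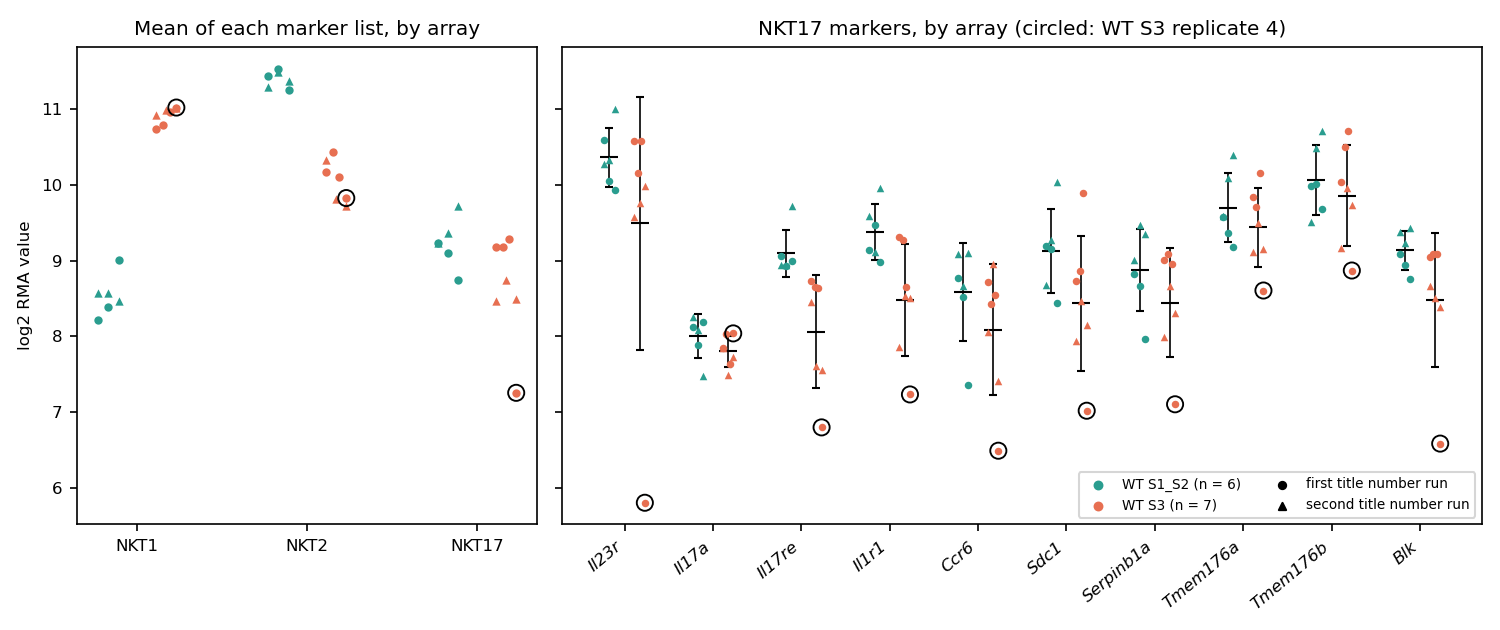
Left, mean log2 value of the NKT1, NKT2 and NKT17 marker lists on each wild-type array, and right, the log2 values of the 10 measured NKT17 markers, with S1_S2 in teal, S3 in orange, shapes for the title number runs, bars for the mean and SD, and WT S3 replicate 4 circled. NKT1 means lie higher and NKT2 means lower on every S3 array, whereas NKT17 means overlap, with S3 replicate 4 at 7.25 below all other arrays.

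Markers of other cell types were read next. None of 6 B cell, 8 thymic epithelium or 3 erythroid markers was called. Of 14 myeloid markers 2 were higher (Lyz2 and Mpeg1) and 1 was lower (Xcr1, a call lost without S1_S2 replicate 2 or 4 or S3 replicate 4 or 7), with list means of 6.01 to 6.26 in S1_S2 and 6.21 to 6.39 in S3, near the background, and 3 of them above background on no wild-type array. Of 3 gamma-delta T cell markers 1 was lower (Cd163l1), and the median was -0.64, with list means of 8.71 to 9.13 in S1_S2 and 7.78 to 8.63 in S3 that did not overlap. The lowest of these means was on S3 replicate 4. Blk, whose difference is this median, is also an NKT17 and B cell marker. It was at 6.58 on S3 replicate 4 and between 8.38 and 9.09 on the other S3 arrays. When single arrays were left out the gamma-delta median lay between -0.76 and -0.34. The share called was 21.4% of the myeloid, 25% of the regulatory T cell and 33.3% of the gamma-delta and double-positive markers, beside 16.9% of all clusters. Of 4 regulatory T cell markers 1 was higher (Tnfrsf18). Of 9 markers of double-positive thymocytes 1 was higher and 2 were lower, with means of 7.86 to 8.22 and 7.81 to 8.17. Their part in the results was not tested.

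The stage difference was then set against the title number runs. Over all clusters the first-run and second-run differences had a correlation of 0.807, given as a description across clusters, which are not independent replicates. Of the 3760 called clusters, 3759 had the same sign in both runs, against 66.3% of all clusters, although the pooled call uses the same arrays. Testing the difference between runs itself called 0 of 22206 clusters (0%, limma), with 1126 at an unadjusted p under 0.05 (5.07%) and a lowest adjusted p of 0.071.

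**Figure D5:**
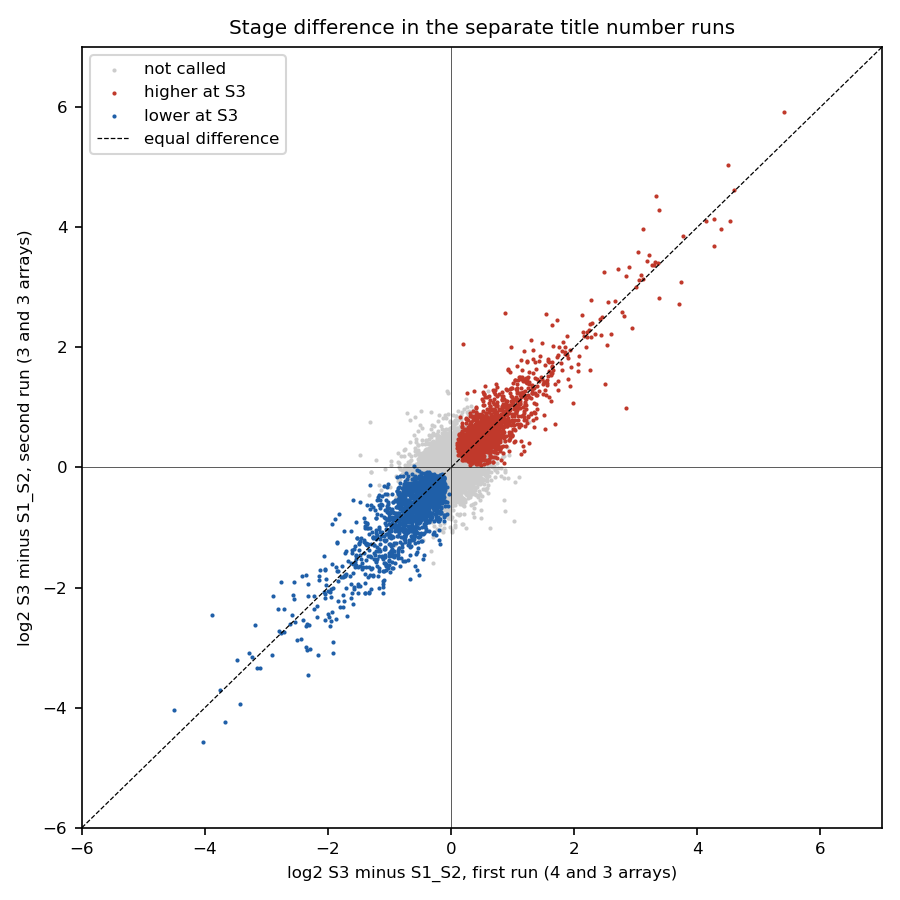
Log2 difference between S3 and S1_S2 in the first title number run (x axis) against the second (y axis) for all 22206 clusters, with called clusters in red and blue and the line of equal difference dashed. Called clusters lie along the line at the upper right and lower left. Over all 22206 clusters tested, 3759 of the 3760 called had the same sign in both runs.

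Finally, the wild-type step was compared with the same step in Mst1KO cells, which lack the Hippo kinase Mst1 per their label and share no arrays with it. All Mst1KO arrays were in the first title number run. The difference between the steps was called for 35 clusters (0.158%), 20 with a higher and 15 with a lower value of the Mst1KO step, and 31 of them were also called in the wild-type step. The count was 23, 61 and 20 without S1_S2 replicates 2, 3 and 5, and 22 without S3 replicate 1.

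The 6 named genes with the largest estimates of that difference follow. Ptprb, a receptor phosphatase, was called (adjusted p = 0.0058), but it was above background on 5 of 6 wild-type S1_S2 arrays and on no wild-type S3 array and no Mst1KO array of either stage. The Mst1KO step was thus not measured, and no size of the difference is given. Gzma rose by 4.00 in wild-type and 1.88 in Mst1KO cells, a difference of -2.11 ± 0.31 (adjusted p = 0.0058). Ccr9 had steps of -4.29 and -2.64, a difference of 1.64 ± 0.25 (adjusted p = 0.0058). Eng, an accessory receptor for TGF beta ligands, and Ccr8 differed by 1.77 ± 0.37 and -1.55 ± 0.31 (adjusted p = 0.049 and 0.044). For Gzma, Ccr9, Eng and Ccr8 the step was smaller in size in Mst1KO cells. There the steps of Eng (-0.59, adjusted p = 0.22) and Ccr8 (0.25, adjusted p = 0.59) were not called. Mean Eng was 9.07 in wild-type and 7.43 in Mst1KO S1_S2 cells, and 6.71 and 6.85 at S3. Gzma was above background on 4 of 6 wild-type and 2 of 4 Mst1KO S1_S2 arrays. Kif15 was called too (adjusted p = 0.042), but it was above background on no wild-type S3 array, so its wild-type fall is known only as at least 4.25-fold, beside a Mst1KO step of -1.57 with every Mst1KO array above background, and the size of the difference is not given. Eng, Kif15 and Ccr8 lost the call in 9, 5 and 10 of the 13 fits that left out 1 wild-type array. In the first run alone, which holds every Mst1KO array, Gzma (-2.38, adjusted p = 0.00018) and Ccr9 (1.85, adjusted p = 0.034) kept the call. The adjusted p there was 0.17 for Ptprb, 0.071 for Eng, 0.22 for Kif15 and 0.27 for Ccr8.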

How the data were processed

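RNA from sorted thymic iNKT cells was amplified and biotin-labelled with NuGEN kits per the labels' protocols and read on Clariom S mouse arrays. The deposited values are log2 signals, produced by the authors in Affymetrix Expression Console 1.1 using RMA (submitters' processing notes). RMA fixes a common distribution across arrays, so differences are relative. The sources used here do not give a genome build for the arrays.

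The table held 28846 items. After removal of 6640 controls, 22206 transcript clusters entered the tests, 19572 of them with 1 symbol. For 55 symbols with several clusters, the cluster with the highest mean was kept. A linear model (limma 3.58.1, R 4.3.3) was fitted to all 25 arrays, with 6 group means, the title number run as a term and 18 residual degrees of freedom, and p-values were adjusted by Benjamini-Hochberg over all clusters. Differences are given ± SE. Where no array of the dimmer group was above background, only a lower bound is given, from the other group's mean and the higher, on each array, of background and own value. The script was tested on simulated data. Figures used matplotlib 3.10.9.

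Named genes were the 15 largest called rises and falls with a symbol (predicted genes, clones, small RNAs and olfactory receptors left out), members of the lists, the sort genes, and the 6 largest of each called interaction. From each list, called members were taken by size of change first (up to 6), then the least changed. The members and lists were chosen with earlier results of these data known. No list was tested as a set. Alternatives covered the run term, the arrays fitted, normalization, filters, weights, variance model, minimum fold, promoter window and each array left out. Arrays give no depth, and their number limits the precision.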

Additional observations from a re-analysis of the deposited data

Results flagged for a closer look

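Within each wild-type group of 6 or 7 arrays, a value was singled out where its gap to the nearest other array took up an unusually large part of the range of the group. Over 214 genes and 48 lists in both groups, 35 values met this (6.68% of the groups of values), and chance gives about 5%. Several fell on WT S3 replicate 4. There Il23r was 5.80 and the NKT17 marker mean 7.25, below the other S3 arrays, as were Klra6 at 9.13 and the cytokine receptor list mean at 9.44. Ifng at 10.48, Fos at 11.07, Jun at 10.79 and Btg2 at 11.44 were above the other S3 arrays there.

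WT S1_S2 replicate 3 was the other array with many such values. It had the highest Klrc1 (8.49), Klrc3 (7.52) and Ccr8 (9.80) of its group. It had the lowest Ccr6 (7.36), Ptprb (5.53), Tlr1 (9.43) and mean of cytosolic ribosomal protein genes (12.55). WT S1_S2 replicate 1 had the lowest Klf2 (7.93), Chek1 (8.05) and Mastl (6.91). Replicate 2 of that group had the lowest Fcer1g (5.53), Il10ra (6.54) and Cd163l1 (8.80), and replicate 5 the highest Nr4a1 (10.30).

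Among the other S3 arrays, replicate 1 had the lowest mean of DNA repair genes (7.21). Replicate 2 had the lowest Il18rap (9.37), Itga2 (8.54), St3gal6 (8.98) and Tyms (6.79). Replicate 3 had the lowest Bcl2l1 (7.40), Pbk (4.60) and Uhrf1 (8.08). Replicate 5 had the highest Nfkbiz (11.08), Sesn3 (10.67), quiescence list mean (9.997) and glycolysis list mean (9.15). Replicate 7 had the highest Bub1b (5.94). None of these values was set aside in the comparisons.

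The stage step differed between wild-type and Mst1KO cells for 35 clusters by the test of that difference. The 6 named genes had Mst1KO minus wild-type estimates of 2.12 for Ptprb, -2.11 for Gzma, 1.77 for Eng, 1.64 for Ccr9, 1.63 for Kif15 and -1.55 for Ccr8. The estimates for Ptprb and Kif15 are no measured sizes, since Ptprb was above background on no wild-type S3 and no Mst1KO array and Kif15 on no wild-type S3 array.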

How the results depend on the processing

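No paired analysis was possible because the labels give no replicate numbers that the stages share. The count of 3760 called clusters (1817 higher and 1943 lower) became 1921 (979 and 942) from the first title number run alone, 1904 (907 and 997) from the second alone and 493 (232 and 261) with a 1.5-fold minimum. Leaving out each wild-type array in turn gave 3362 to 3759 called clusters, 1616 to 1840 higher, 1746 to 1956 lower and 562 to 600 of at least 2-fold. The stage difference between runs stayed at 0 called clusters under its 4 alternatives. The 35 clusters of the comparison with Mst1KO became 17 without the run term, 10 from the first run alone and 20 to 61 when single wild-type arrays were left out; the cause was not tested.

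Of 214 named genes 200 were called, a share raised by the naming rule, which took called members and the largest changes first. None of these changed sign under any alternative run, and 196 kept the call whichever array was left out, the exceptions being Atf4, Cdt1, Jun and Xcr1. The first run alone called 180 of them and the second alone 176, with fewer arrays in each. With the 1.5-fold minimum, 77 named genes lost the call.

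Signal over background limits the fold of dim genes. For 150 called clusters, the brighter group had arrays above background and the dimmer group had none. A further 130 called clusters were above background on no wild-type array, so their calls rest on values at or below background.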
